A study of Danio rerio with 18 samples.

Results

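The genes described here encode the proteins of the cytosolic ribosome, measured as poly(A) RNA in the adult zebrafish ventricle. They were taken by name: a symbol that begins with rpl, rps or rplp and a digit, or is rpsa, with the rps6k kinases and names containing "like" left out and at least 10 counts in 3 libraries. Of the 25107 genes in the deposited table, 23499 had a symbol and 94 matched these names. Removing 11 rps6k genes left 83 members, of which 47 carry large-subunit names, 35 carry small-subunit names and 1, rps19bp1, is named for binding RPS19 and is not itself a ribosomal protein. The count filter removed 0 of them, and all 83 entered the tests. In 4 cases a pair of genes shares a symbol, rpl5 and rps26 among them, so the chromosome is given for these.

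A ribosome is built from ribosomal RNA and one copy of nearly every ribosomal protein, the acidic stalk proteins of the large subunit being the known exception with several copies. In vertebrates the mRNAs of these proteins carry a terminal oligopyrimidine tract, through which mTOR signalling sets their translation, and surplus unassembled proteins are degraded. Several members have a second gene that encodes a closely related protein, and in mammals such paralogs, RPL22L1 and RPS27L among them, are known to replace or regulate their partner.

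All fish carried the floxed allele tcf21vln18/vln18 together with Tg(ubbR:CreERT2*)vln2, an inducible Cre under a ubiquitous promoter, and TgBAC(tcf21:DsRed2)pd37, a red reporter driven by tcf21 sequence. Fish of the conditional knock-out (cKO) arm received 3 baths of 24 h in 5 µM 4-Hydroxytamoxifen and went to procedures 12 days after the first bath. The labels list no drug for the control arm, so exposure to the drug and loss of tcf21, an epicardial transcription factor, cannot be told apart. Ventricles of each arm were taken uninjured, 3 days after sham surgery in which the heart was exposed but not injured, or 3 days after cryoinjury, a freeze lesion of the ventricle wall. There were 3 libraries in each of the 6 groups, and each library came from 2 to 3 pooled ventricles. The promoter does not restrict Cre to 1 cell type, and whole ventricles mix all of them.

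Libraries held 107256750 to 191085931 estimated counts, of which 13 mitochondrially encoded genes took 11.7% to 21.6%. The targeted gene tcf21 had 867 to 3107 counts in the control libraries and 56 to 169 in the cKO libraries, without overlap. The 11 measured of 18 listed cardiomyocyte markers summed to between 61457 and 106753 as counts-per-million (CPM) of the library total, so the defining transcripts of ventricle muscle were abundant throughout. All 3 uninjured control libraries and sham control replicates 1 and 2 carry the mark L2 in their headers, and all others L4. The mark is read here as the flow cell lane and called lane below. The labels do not state what it stands for.

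The members were among the most abundant transcripts of the ventricle. On the transcripts-per-million scale (TPM, a level per transcript length), the median member stood at 1310 TPM over the 18 libraries, and 54 of the 83 exceeded 1000 TPM. Of the 100 most abundant genes tested 38 were members, and 78 members lay within the top 500. The highest was rps2, a small-subunit protein at the mRNA entry tunnel, with a mean of 4574 TPM (3369 to 6027). It was followed by rps12 with 4108 TPM (2490 to 6486) and rplp0, the base of the large-subunit stalk, with 3939 TPM (2771 to 5712). Next came rpl6 with 2963 TPM (2140 to 3863) and rpl7a with 2800 TPM (2046 to 3615). Neighbours in this order had overlapping ranges.

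Only 5 members lay below 100 TPM. Among them were rps11l (0.305 TPM), rps19bp1 (8.01 TPM), rpl7l1 (27.4 TPM) and rps27l (39.7 TPM), and the next in order above them was rpl38 (184 TPM). Each of rps11l, rpl7l1 and rps27l is named after a more abundant ribosomal protein gene. Counts for rps11l were 4 to 67 per library, and its values are too sparse to place in any order between groups.

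Between these ends the familiar reference members listed next ranged from 2589 TPM for rpl3 to 418 TPM for the rps26 gene on chromosome 6. rpl3, which lies near the peptidyl transferase centre, had 2589 TPM (1913 to 3387). The stalk proteins rplp1 and rplp2 had 2315 TPM (1588 to 3311) and 1964 TPM (1627 to 2436). The mTOR pathway phosphoprotein rps6 had 2071 TPM (1500 to 2663), and rps3, which also lies at the mRNA entry site, had 581 TPM (430.3 to 754). By mean CPM rps3 lay above rps6, at 1418 against 1243, with main transcripts of 3493 and 860 bases. On the TPM scale rps14 had 1774 TPM and rps19 1554 TPM, both known from human red cell failure syndromes, and rps18 had 1149 TPM. rpl10, a late joining protein of the large subunit, had 1800 TPM, and rpl11 had 1452 TPM. rpl13a, used in vertebrates as a reference gene, had 1044 TPM, rpl39 of the exit tunnel 971 TPM, and rps29 420 TPM. Genes that share a symbol were close to each other in rpl5 (990 TPM on chromosome 6, 911 TPM on chromosome 2). The rps26 genes had 539 TPM on chromosome 23 and 418 TPM on chromosome 6. By mean CPM their order was reversed, with 164 on chromosome 23 and 420 on chromosome 6. Their main transcripts have 436 bases on chromosome 23 and 1445 bases on chromosome 6.

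Together the members took 4.45% to 8.12% of all counts of a library. In uninjured control ventricles the share was 4.90%, 5.33% and 6.82% for replicates 1, 2 and 3, after sham 5.49%, 6.11% and 7.11%, and after cryoinjury 6.78%, 8.12% and 8.12%. In the cKO arm it was 4.45%, 4.85% and 5.36% uninjured, 4.80%, 5.73% and 5.64% after sham, and 6.05%, 7.92% and 7.94% after cryoinjury. In both arms the share was largest after cryoinjury, without overlap with uninjured in the cKO arm and with an overlap in control, where uninjured replicate 3 (6.82%) lay above cryoinjured replicate 1 (6.78%). The group means after cryoinjury were 1.35 times those of uninjured ventricles in control and 1.49 times in cKO (log2 0.43 and 0.58). Scaled by library totals in the same way, the median of all genes also rose, as given below. That rise was larger than the rise of the members' share in control and smaller in cKO. In these bulk samples fewer cells of a type and less RNA per cell cannot be told apart.

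**Figure D1:**
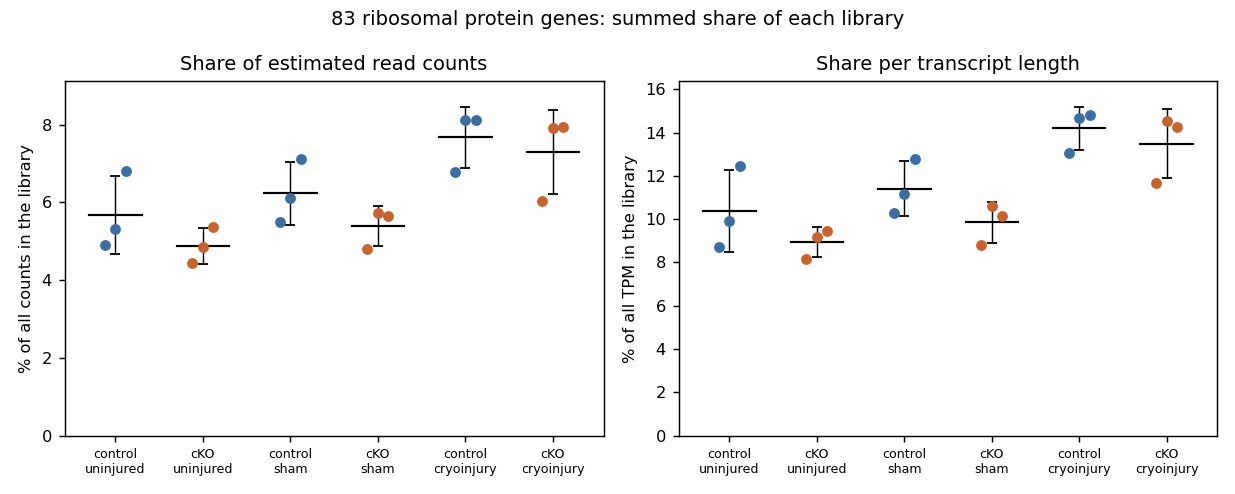
Summed share of the 83 ribosomal protein genes in each of the 18 libraries, as a percentage of counts (left) and of TPM (right); points are libraries, horizontal lines are group means and bars are 1 SD of 3 libraries. The 3 cKO libraries after cryoinjury lie at 6.05% to 7.94% of counts, all above the 3 uninjured cKO libraries at 4.45% to 5.36%.

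Per length the members made up a mean of 10.4% of TPM in uninjured control, 11.4% after sham and 14.2% after cryoinjury. In cKO the means were 8.94%, 9.85% and 13.5%. The summed TPM of large-subunit names over small-subunit names stayed between 1.3 and 1.38 in all 18 libraries. After cryoinjury it was 1.3 to 1.31 in cKO and 1.35 to 1.38 in control, 2 ranges that do not overlap, while uninjured ventricles had the opposite order (1.35 to 1.37 in cKO and 1.31 to 1.34 in control). With 3 libraries against 3, an exact permutation test of such a ratio cannot go below a two-sided p of 0.1. TPM of a single member can also part from its counts. In cryoinjured cKO rpl15 had 459, 1491 and 611 TPM where its CPM were 779, 1016 and 1099. The median log2 fold changes of cKO against control after cryoinjury were 0.13 for large-subunit and 0.17 for small-subunit names.

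The members varied little and together. Their spread between conditions, taken as the SD of the 6 group means of log2 CPM, had a median of 0.14 against 0.37 over all 20462 genes tested, and 67 of the 83 were under 0.2. All genes tested include far less abundant ones, and no set of genes of like abundance was compared. Among the steadiest were rpl24 (0.08), rplp2 (0.08), rps6 (0.10) and rpl32 (0.10). Their mean SD within groups was larger, at 0.20, 0.20, 0.19 and 0.22, so the order among them is not resolved. The widest were rps27l (0.60), rpl22l1 (0.52), rplp2l (0.41) and rpl7l1 (0.35), each named after a partner. rps11l, at 0.52, is left out of the widest because, unlike theirs, its mean SD within groups (0.85) was larger.

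Libraries of 1 group also differed from each other in the members jointly. Over the 78 members above 100 TPM, the deviations of log2 CPM from the group mean had a median correlation of 0.93 across the 18 libraries in 3003 pairs of genes, as a description, since all pairs share library and depth. Against the mean of these members 73 of the 83 had a correlation of at least 0.9. Among the 8 below 0.8 were rpl7l1 (−0.17), rps11l (0.00), rps27l (0.31), rps19bp1 (0.51), rpl22l1 (0.74), rps29 (0.79) and rpl38 (0.79). The same libraries were therefore low or high for nearly all members: cryoinjured replicate 1 deviated by −0.30 in control and by −0.30 in cKO, and uninjured control replicate 3 by 0.22.

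Comparisons used 1 edgeR quasi-likelihood fit of all 18 libraries with trimmed mean of M values (TMM) scaling, and a gene is called at an adjusted p (Benjamini-Hochberg over 20462 genes) under 0.05. The scaling bears on a block of abundant genes. TMM factors were 0.769 to 0.935 in uninjured control and 1.15 to 1.33 in cryoinjured control, and 0.854 to 0.929 and 1.01 to 1.096 in the same groups of cKO. Abundant muscle transcripts took less of the library after cryoinjury in both arms. On average myh7 (ventricular myosin heavy chain) fell from 3.30% to 1.85% of counts in control and from 3.30% to 2.71% in cKO. The gene mb fell from 2.77% to 2.30% in control and from 3.47% to 2.61% in cKO. Scaled by library totals alone, the median of all genes moved by 0.51 between cryoinjured and uninjured control and by 0.28 between the same groups of cKO (log2). Medians of the members are therefore given beside those of all genes, and both scalings are given where they part.

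In uninjured ventricles most members were lower in cKO than in control, by a small amount that no member's test called. The median log2 fold change was −0.26 against 0.00 over all genes, and 80 of 83 members were lower. edgeR called 0 members, with 0.132% of all genes called. At an unadjusted p under 0.05 there were 2 lower and 1 higher member, where all genes had 6.41% lower and 7.30% higher, and DESeq2 called 0, with 2.45% of all genes called. In 28 members the 3 cKO libraries all lay below the 3 control libraries, and in 1 all lay above, where 5.34% and 5.04% of all genes did so. The members moved together between libraries of a group, so these 28 do not count as separate results. The median log2 fold change was −0.15 without uninjured control replicate 3 and −0.35 without uninjured control replicate 2. The smallest p belonged to rpl7l1 (log2 fold change −0.57, SE 0.17, adjusted p 0.182 by edgeR), followed by rps27l (0.39, SE 0.17, adjusted p 0.328) and rpl36 (−0.39, SE 0.17, adjusted p 0.331). Control libraries were all in lane 2 and cKO libraries all in lane 4, so lane and arm cannot be told apart within this condition. With lane as a covariate, estimated through the sham controls, of which replicate 3 alone is in lane 4, the median was −0.54.

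On the TMM scale the median member lay nearer to 0 after sham and after cryoinjury. It was at −0.05 after sham (23 of 83 higher) and at 0.14 after cryoinjury (76 of 83 higher), against 0.00 and −0.01 over all genes. With library totals it was −0.22 after sham, where all genes stood at −0.17, and −0.21 in uninjured ventricles, where all genes stood at 0.04. The share of counts in cKO was 0.864 times that of control after sham, about the same as in uninjured ventricles (0.860). The median after sham was 0.05 without control replicate 3 and 0.03 without cKO replicate 1, and with lane as a covariate it was −0.22. After cryoinjury it was 0.01 without control replicate 1, 0.03 without cKO replicate 3 and 0.26 without cKO replicate 1, and it turned to −0.05 with library totals, when all genes stood at −0.20. The 688 other genes above 100 TPM had a median of 0.21 in the same comparison, above that of the members. edgeR called 0 members in either condition, where 0.0147% and 0.00489% of genes were called. At an unadjusted p under 0.05 there was 1 higher member after sham, rps27l, where 3.73% of all genes were higher, and there were 3 after cryoinjury, rps27l, rps29 and rpl37, where 4.58% were.

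rps27l, picked here from the 83 members, had their largest log2 fold change of cKO against control after sham and after cryoinjury. It lies on chromosome 25 (34641536 to 34650374, plus strand of GRCz11, ENSDARG00000100513), and encodes an S27-like protein. In control it was at 12.4, 11.5 and 12.3 CPM uninjured, 13.5, 14.2 and 16.1 CPM after sham, and 23.3, 25.3 and 22.1 CPM after cryoinjury. In cKO it was at 18.4, 14.8 and 14.3 CPM uninjured, 23.3, 31.8 and 19.4 CPM after sham, and 31.2, 38.5 and 43.1 CPM after cryoinjury. In each of the 3 conditions every cKO library lay above every control library. In uninjured ventricles 5.04% of all genes did so, and no such share is given here for sham and cryoinjury. Lane and arm coincide in uninjured ventricles. After sham, control replicates 1 and 2 were in lane 2 and all cKO libraries in lane 4. After cryoinjury both arms were in lane 4. The log2 fold changes of cKO against control were 0.39 (SE 0.17), 0.77 (SE 0.17) and 0.67 (SE 0.17), with adjusted p 0.328, 0.194 and 0.326 by edgeR. DESeq2 called it after sham (adjusted p 0.00827) and after cryoinjury (0.0456), its only called member there, with 0.721% and 0.414% of genes called.

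**Figure D2:**
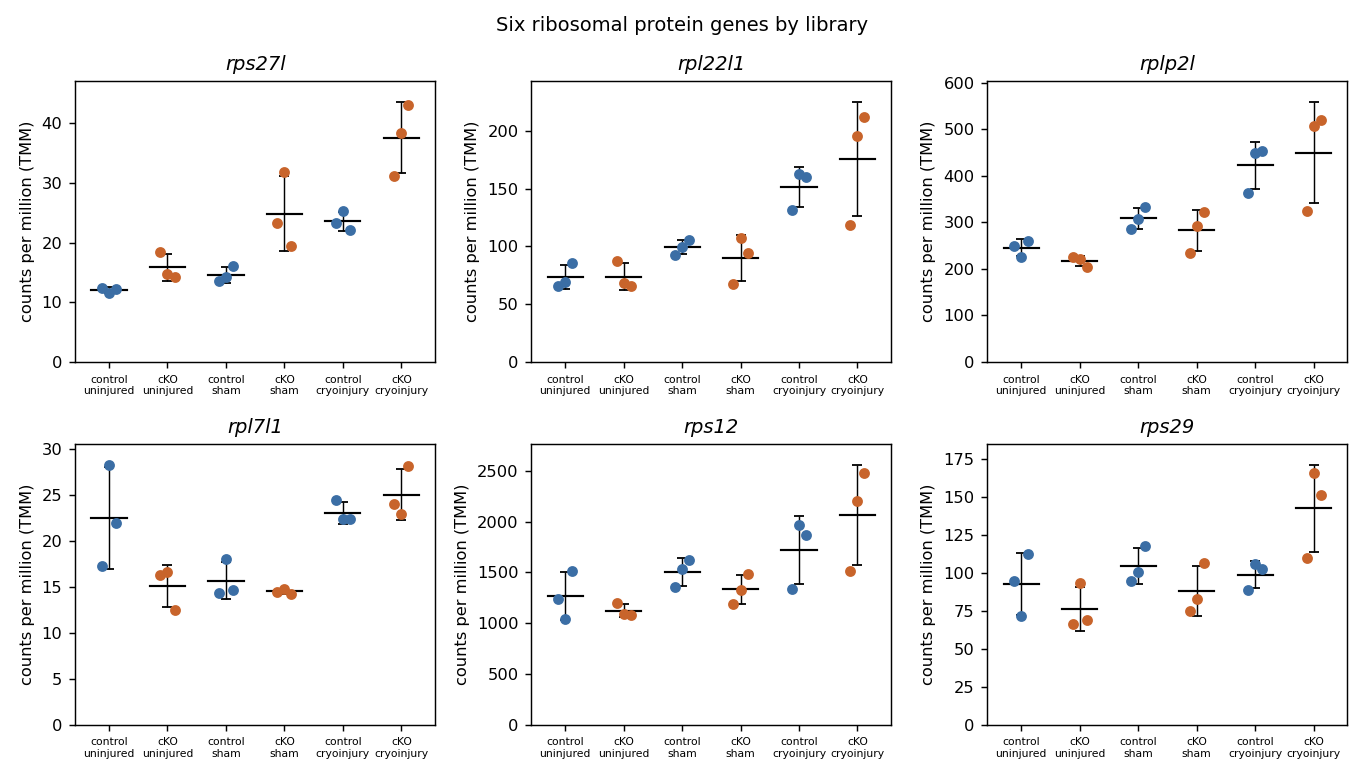
CPM with TMM library sizes of rps27l, rpl22l1, rplp2l, rpl7l1, rps12 and rps29 in each library; points are libraries, horizontal lines group means and bars 1 SD of 3 libraries. For rps27l the cKO libraries after cryoinjury reach 31.2 to 43.1 CPM, against 22.1 to 25.3 CPM in control.

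The sham operation moved the members little in either arm. In control the median log2 fold change against uninjured was −0.14, against 0.04 over all genes, and with library totals it was 0.15 against 0.33. In cKO it was 0.08 against 0.02. edgeR called 0 members in either arm, where 7.63% of genes were called in control and 1.05% in cKO. In control the same-numbered libraries of these groups had deviations that correlated at 0.103, 0.107 and 0.112 over all genes. With the replicate number as a block over all 18 libraries, edgeR called rpl3 (−0.38, adjusted p 0.0476) and rps27.2 (−0.43, adjusted p 0.0358) lower. These were 2 of 83, where 3.32% of all genes were called lower. At an unadjusted p under 0.05 there were 2 lower members in control and 2 higher members in cKO, where 9.20% and 7.33% of all genes were. DESeq2 called rpl7l1 lower in control and rps27l higher in cKO, with 10.6% and 2.36% of genes called. By edgeR, rpl7l1 was at −0.52 (SE 0.17, adjusted p 0.0746), rps27.2 at −0.42 (SE 0.18, adjusted p 0.180) and rpl22l1 at 0.43 (SE 0.21, adjusted p 0.236) in control. In cKO, rps27l was at 0.65 (SE 0.17, adjusted p 0.0979) and rplp2l at 0.38 (SE 0.17, adjusted p 0.428).

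After cryoinjury of control ventricles 3 members rose and 1 fell. Those that rose were rps27l, rpl22l1, which encodes a paralog of large-subunit protein L22, and rplp2l, named after stalk protein P2. Of all genes 13.1% were called higher and 10.6% lower, so 3 of 83 and 1 of 83 were no more than the background share in either direction. The median member was at −0.01 against 0.02 over all genes, and the 688 other genes above 100 TPM had a median of −0.58.

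In control rpl22l1 (ENSDARG00000010244, chromosome 24, 26475182 to 26479841, minus strand) was at 66.0, 69.2 and 85.7 CPM uninjured and at 132, 162 and 160.4 CPM after cryoinjury. The groups did not overlap, and the rise was 2.06-fold (log2 1.04, SE 0.21, adjusted p 0.00182). rplp2l (ENSDARG00000011201, chromosome 7, 12959846 to 12968701, minus strand) went from 249, 225 and 261 CPM to 363.5, 449.9 and 454 CPM, again without overlap, a 1.72-fold rise (log2 0.79, SE 0.17, adjusted p 0.00351). rps27l, whose values are above, rose 1.95-fold (log2 0.97, SE 0.17, adjusted p 0.000798).

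These 3 were called whichever of the 6 libraries was left out, and DESeq2 called them too. Uninjured and cryoinjured control lay in different lanes. Lane as a covariate was estimated through sham control, where replicate 3 alone is in lane 4. With this covariate 0 members were called, with 3.24% of all genes called, and the median member was at −0.30 against 0.06 over all genes. The log2 fold changes were then 0.75 for rps27l, 0.92 for rpl22l1 and 0.62 for rplp2l, with adjusted p 0.22, 0.225 and 0.327. With library totals 43 members were called higher, where 27.9% of all genes were, and the median member at 0.46 lay below that of all genes at 0.51.

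In the cKO arm, where all libraries came from lane 4, cryoinjury raised 17 members and lowered 1 against uninjured. Among all genes 6.92% were called higher and 3.69% lower, and 17 of 83 exceeds the first share while 1 of 83 does not exceed the second. The members moved together between libraries of a group (median correlation 0.93), so they do not count as separate results. Whether the set as a whole exceeds the share was not tested. DESeq2 called 25 members, with 13.5% of genes called. The median member was at 0.35 against 0.03 over all genes, and 80 of 83 were higher. In 38 members all 3 cryoinjured libraries lay above all 3 uninjured ones, as did 20.0% of all genes. The 688 other genes above 100 TPM had a median of −0.29.

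**Figure D3:**
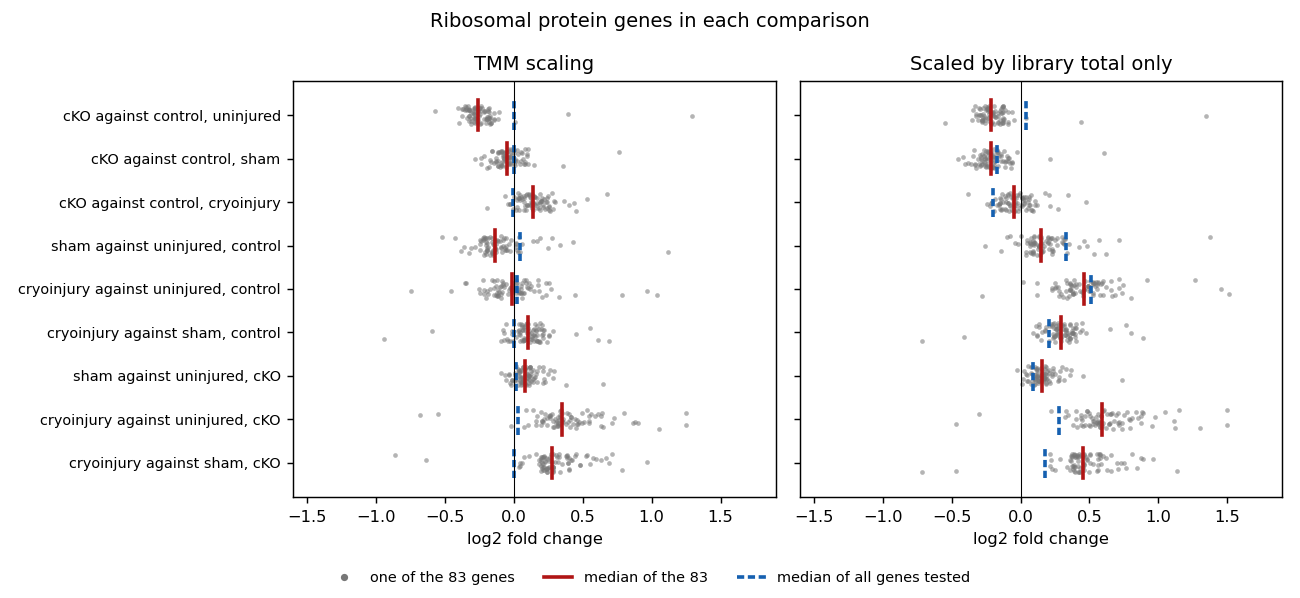
Log2 fold changes of the 83 ribosomal protein genes in 9 comparisons with TMM scaling (left) and with library totals only (right); grey points are genes, red bars the median of the 83 and dashed blue bars the median of all genes tested. In cryoinjured against uninjured cKO ventricles the median of the 83 lies at 0.35 on the left and 0.59 on the right, above all genes (0.03 and 0.28); in control it lies at −0.01 and 0.46, near all genes (0.02 and 0.51).

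The largest rises in cKO were those of the paralog genes already named. rpl22l1 went from 87.5, 68.4 and 65.8 CPM to 119, 196 and 212 CPM, without overlap (2.38-fold, log2 1.25, SE 0.21, adjusted p 0.00134). rps27l rose 2.37-fold (log2 1.25, SE 0.17, adjusted p 0.000279). rplp2l went from 226, 220.5 and 204 CPM to 325, 507 and 519.5 CPM, without overlap (2.07-fold, log2 1.05, SE 0.17, adjusted p 0.00114).

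Next came rps29 and rps12, which are not named after a partner. rps29 (ENSDARG00000041232, chromosome 20, 54079341 to 54085949, plus strand), a small zinc-binding protein of the small subunit, went from 66.4, 93.1 and 69.2 CPM to 110.1, 166 and 152 CPM (1.87-fold, log2 0.90, SE 0.20, adjusted p 0.00876). rps12 (ENSDARG00000036875, chromosome 23, 31431956 to 31435922, plus strand), second to rps2 in level, went from 1202, 1091 and 1077 CPM to 1518, 2199 and 2482 CPM (1.84-fold, log2 0.88, SE 0.19, adjusted p 0.00834). In both genes cryoinjured replicate 1 was the lowest of its group and still above every uninjured library.

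Called higher as well were rpl38 (0.80), rpl7l1 (0.73), rpl29 (0.71), rpl31 (0.64), rpl39 (0.64), rpl37 (0.63), rps28 (0.63), RPL36AL (0.61), rpl35 (0.59), rpl11 (0.56) and rps7 (0.55), all as log2 fold changes.

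The calls of rps27l, rpl22l1 and rplp2l were kept whichever of the 6 libraries was left out. The count of called members was 6 and 5 without cryoinjured replicate 2 or 3, and 7, 7 and 6 without uninjured replicate 1, 2 or 3. All of these were higher, and at 6.02% to 8.43% of the members they lay nearer to the share of all genes called higher in the same fits, 3.54% to 7.19%, than in the fit of all libraries. The count was 24 without cryoinjured replicate 1 and 11 without sham replicate 2 of cKO, a library of the same fit, where 5.21% and 6.10% of genes were called higher. With library totals it was 59, all higher, where 11.8% of all genes were called higher. When the 6 libraries were fitted alone it was 7, with 8.09% of genes called.

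Of the reference members described by level above, rpl11, rpl39 and rps29 were called in cKO and none in control. rplp0 was at 2848, 2878 and 3617 CPM in uninjured control and at 2643, 3822 and 3507 CPM after cryoinjury, and at 2590.0, 2474 and 2906 CPM and 2431, 3415 and 3706 CPM in cKO. In both arms cryoinjured replicate 1 lay below every uninjured library so the groups overlapped (log2 fold change 0.09 in control and 0.26 in cKO, SE 0.18 in each). The log2 fold changes in control and in cKO were −0.34 and 0.11 for rpl3, −0.09 and 0.20 for rps6, −0.10 and 0.17 for rps3, and −0.02 and 0.14 for rpl10. They were −0.13 and 0.27 for rpl13a, −0.15 and 0.46 for rps18, −0.08 and 0.40 for rps19, 0.05 and 0.33 for rps14, and 0.23 and 0.47 for rplp1, with SE 0.16 to 0.19.

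Against sham, cryoinjured control ventricles had a median member of 0.11, against 0.00 over all genes, and 0 members were called by edgeR, where 1.37% of genes were called. At an unadjusted p under 0.05 there were 4 higher and 1 lower, where 8.35% and 8.38% of all genes were. rps27l was at 0.69 (SE 0.17, adjusted p 0.0559) and rpl7l1 at 0.56 (SE 0.17, adjusted p 0.105), and both were among the 3 members DESeq2 called, with 5.44% of genes called. With lane as a covariate the median was −0.08. In cKO the median member was at 0.28 against 0.00, 81 of 83 were higher, and 2 were called, with 1.18% of all genes called higher. DESeq2 called 10, with 4.43% of genes called. The 2 were rpl22l1 (1.95-fold, log2 0.97, SE 0.21, adjusted p 0.0353) and rpl7l1 (1.73-fold, log2 0.79, SE 0.17, adjusted p 0.0353). rpl7l1 (ENSDARG00000042864, chromosome 20, 36675083 to 36679233, minus strand), named after large-subunit protein L7 and found in precursors of the large subunit in human cells, was at 14.5, 14.8 and 14.2 CPM after sham and at 24.0, 22.9 and 28.2 CPM after cryoinjury in cKO. The call of rpl7l1 was lost whichever of the 6 libraries compared was left out (adjusted p 0.0729 to 0.155 by edgeR). This includes the fit without cKO cryoinjured replicate 1, where 2 members were called. Without any 1 of the 3 cKO sham libraries, or without cKO cryoinjured replicate 2 or 3, the count of called members was 0. It was also 0 without control cryoinjured replicate 2 or control sham replicate 3, and 1 without control sham replicate 2, libraries of the same fit.

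Whether the response to cryoinjury differed between the arms was tested directly. The response was larger in cKO by a median of 0.42 (log2), against 0.01 over all genes, and in 82 of 83 members its estimate was larger. edgeR called 0 members, with 0.0244% of genes called, and 17 members had an unadjusted p under 0.05 in this direction, where 5.79% of all genes had one. DESeq2 called 0, with 1.3% of genes called. The smallest p were those of rpl37 (0.77, SE 0.26, adjusted p 0.301), rps29 (0.81, SE 0.28, adjusted p 0.306) and rpl7l1 (0.69, SE 0.24, adjusted p 0.308). Other genes above 100 TPM had a median of 0.22 in the same test, and with library totals the members stood at 0.18 while all genes stood at −0.23. The median was 0.28 without control cryoinjured replicate 1, 0.29 without control uninjured replicate 3 and 0.53 without cKO cryoinjured replicate 1, and 0.69 with lane as a covariate. The uninjured groups enter this difference, and there lane and arm coincide.

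The same test for the sham response gave a median of 0.21 against 0.00 over all genes, with 77 of 83 members larger in cKO. edgeR and DESeq2 called 0 members, with 0.0244% and 1.05% of genes called, and 0 had an unadjusted p under 0.05, where 9.20% of all genes had one. With library totals the median was −0.003. The smallest p were those of rpl7l1 (0.46, SE 0.24, adjusted p 0.60), rpl34 (0.45, SE 0.24, adjusted p 0.609) and rps18 (0.41, SE 0.23, adjusted p 0.626).

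Transcript length separated the members in some comparisons and not in others. Over the 78 members above 100 TPM, Spearman's rho between the length of the main transcript and the log2 fold change was −0.55 for cKO against control after cryoinjury. Over the 688 other genes above 100 TPM it was −0.001. The 26 shortest members, up to 563 bases, had a median of 0.22, and the 26 longest, from 810 bases, had 0.08. rps29, the shortest at 346 bases, had the largest value of the 78 (0.53). In cryoinjured against uninjured ventricles rho was −0.42 in cKO (other genes −0.13) and −0.08 in control (other genes −0.12). Against sham, cryoinjury gave −0.35 in cKO and the opposite sign, 0.29, in control. Sham against uninjured ventricles gave −0.36 in cKO and −0.28 in control. For cKO against control rho was −0.05 in uninjured ventricles and 0.10 after sham. These are descriptions, since all genes of a comparison share the same libraries, and neither RNA integrity nor fragment size is given in the sources used here, so their part in the relation was not tested.

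**Figure D4:**
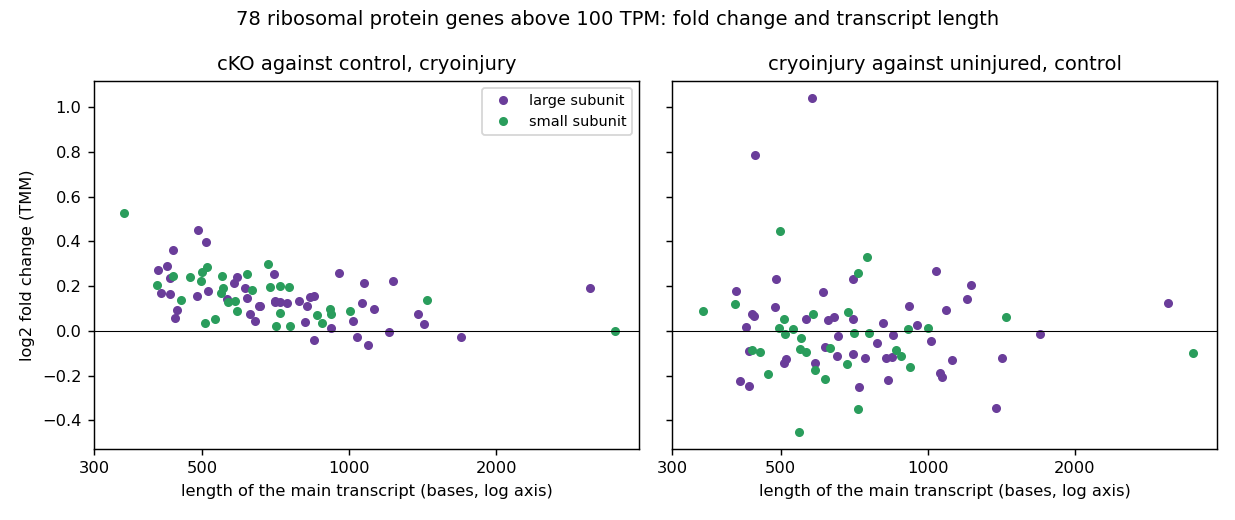
Log2 fold change (TMM scaling) of the 78 ribosomal protein genes above 100 TPM against the length of their main transcript in bases on a log axis, for cKO against control after cryoinjury (left) and for cryoinjured against uninjured control (right); colours mark names of the large and the small subunit. Short transcripts lie higher on the left, where rps29 at 346 bases reaches 0.53, and no such slope is seen on the right (rho −0.08).

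A share within a pair of partner genes does not depend on the scaling of the library. It does depend on the transcript lengths behind TPM, and rpl22 has 4 annotated transcripts of up to 3494 bases. In each pair below except rps26 and rpl7l1, the ranges of this share after cryoinjury and in uninjured ventricles lay apart in both arms. How often other gene pairs separate in this way is not given here. In cKO 20.0% of all single genes were higher after cryoinjury without overlap. Because rpl22l1, rplp2l and rps27l were called higher in the same comparisons, their shares are not separate results. In control, uninjured and cryoinjured libraries lay in different lanes, and in uninjured ventricles lane and arm coincide. rpl22l1 made up 17.2% to 24.7% of the TPM it shares with rpl22 in uninjured control, 23.4% to 26.6% after sham and 32.8% to 37.1% after cryoinjury. In cKO the ranges were 17.9% to 29.2%, 19.7% to 33.4% and 30.2% to 43.1%, so sham and cryoinjury overlapped in cKO and not in control. The partner rpl22, which encodes the standard L22 protein, was at −0.25 in control and 0.31 in cKO after cryoinjury against uninjured (log2, not called).

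For the stalk protein P2 the shift was similar. rplp2l made up 26.0% to 28.4% of its pair with rplp2 in uninjured control, 32.8% to 34.2% after sham and 40.4% to 46.9% after cryoinjury. In cKO the ranges were 26.3% to 26.9%, 29.7% to 33.0% and 39.4% to 42.6%. The 3 conditions did not overlap in either arm. rplp2 itself was at −0.23 in control and 0.09 in cKO after cryoinjury against uninjured (log2, not called), while rplp2l was called in both arms.

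The share of rps27.1 in its pair with rps27.2 went from 42.9% to 44.7% in uninjured control to 47.0% to 50.1% after cryoinjury, and from 41.3% to 42.8% to 45.7% to 47.5% in cKO. rps27l made up 1.078% to 1.38% of its sum with rps27.2 in uninjured control, 1.93% to 2.20% after sham and 2.67% to 4.27% after cryoinjury. In cKO it was at 1.56% to 2.57%, 2.28% to 3.90% and 4.28% to 4.82%, above control in each condition without overlap, with 4.27% and 4.28% at the nearest point.

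In the pair of rpl5 the share of the gene on chromosome 6 was lower after cryoinjury, and that of its partner therefore higher. Both carry the same symbol, so the direction depends on which gene is counted. The rpl5 gene on chromosome 6 made up 55.1% to 58.8% of its pair in uninjured control, 48.4% to 51.4% after sham and 47.8% to 49.1% after cryoinjury. In cKO it was at 52.995% to 55.1%, 53.9% to 54.96% and 50.5% to 52.2%, above control without overlap after sham and after cryoinjury. The rps26 gene on chromosome 6 made up 41.7% to 44.2% of its pair in uninjured control and 43.4% to 47.4% after cryoinjury, and 42.8% to 45.3% and 42.3% to 43.9% in cKO, with overlap in both arms. rpl7l1 made up 1.12% to 2.18% of its sum with rpl7 in uninjured control and 1.47% to 2.13% after cryoinjury, and 0.984% to 1.44% and 1.41% to 1.84% in cKO, again with overlap in both arms. With 3 libraries a group the smallest two-sided p of an exact permutation test for any of these shares is 0.1. How reads that fit both genes of a pair were assigned is not given in the sources used here.

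**Figure D5:**
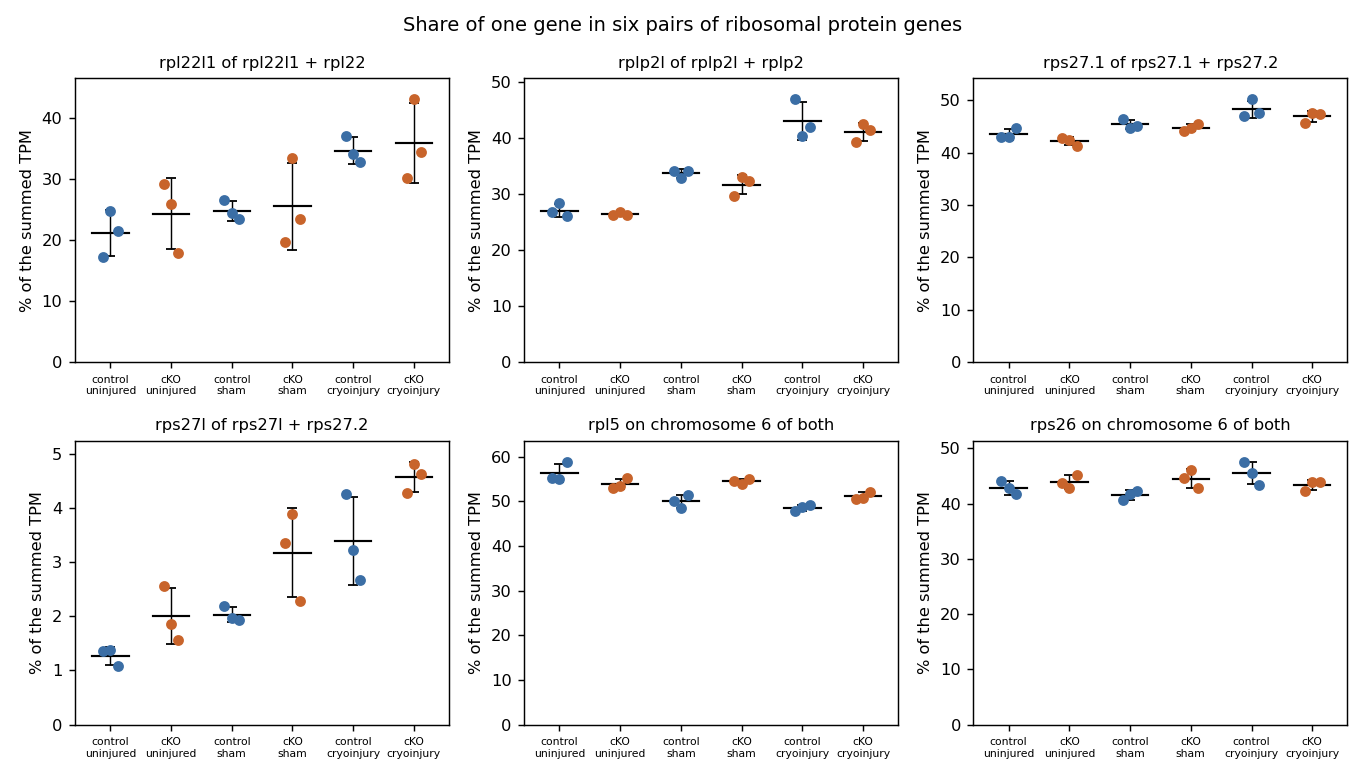
Share of one gene in the summed TPM of 6 pairs of ribosomal protein genes that share a symbol or a name stem, in each library; points are libraries, horizontal lines group means and bars 1 SD of 3 libraries. The share of rplp2l is 26.0% to 28.4% in uninjured control and 40.4% to 46.9% after cryoinjury, and the share of rpl5 on chromosome 6 is 55.1% to 58.8% and 47.8% to 49.1% in the same groups.

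Some genes that build ribosomes fell after sham in control. Of 50 ribosome assembly factors 48 were measured, and against uninjured control 9 fell and 0 rose after sham (median −0.50), where 2.82% of all genes were called lower, among them npm1a (−0.92, adjusted p 0.0245 by edgeR), nob1 (−0.83, adjusted p 0.00899) and ncl (−0.57, adjusted p 0.0325). After cryoinjury in control 5 fell and 1, tcof1, rose (1.18, adjusted p 0.00105), with a median of −0.20. This was no more than the share of all genes, of which 10.6% were called lower and 13.1% higher. In cKO 2 rose and 0 fell after cryoinjury against uninjured, tcof1 (1.04, adjusted p 0.00634) and dkc1 (0.95, adjusted p 0.0444), and 1, nop16, rose against sham (1.02, adjusted p 0.0423), where 6.92% and 1.18% of all genes were called higher. In uninjured ventricles their median in cKO against control was −0.40, with 0 called. With library totals the medians in control were −0.24 after sham and 0.26 after cryoinjury, with 0 and 1 called lower. Of 13 measured genes of RNA polymerase I, which transcribes ribosomal RNA, 3 fell after sham in control, where 2.82% of all genes were called lower. After cryoinjury 2 fell and 1 rose, where 10.6% were called lower and 13.1% higher. These were ubtf, polr1a and polr1c after sham, and ubtf, polr1a and, rising, taf1b (0.66, adjusted p 0.0389) after cryoinjury.

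The mitochondrial ribosomal proteins, which serve the ribosomes of the mitochondrion, were measured for 75 genes. After cryoinjury of control ventricles 20 of 75 fell and 0 rose (median −0.41), where 10.6% of all genes were called lower, and with library totals the median was 0.07 with 0 called lower and 5 higher. In cKO 0 were called and the median was −0.17. Of 21 elongation factors and other genes whose mRNAs carry the oligopyrimidine tract in mammals, 5 fell in control (median −0.35), naca, pabpc1b, btf3, eef1b2 and eef1da, and 1, pabpc1b, fell in cKO (median 0.17), where 10.6% and 3.69% of all genes were called lower. Of this list 1 gene, not among those named, is also among the 83, and without it the medians were −0.28 and 0.09. With library totals the median in control was 0.12, with 3 called higher and 0 lower.

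Among 25 genes of the mTOR pathway, 2 rose and 5 fell after cryoinjury in control, eif4ebp3, a repressor of cap-dependent translation, falling by 1.91 (adjusted p 0.000775) and sesn3, a stress-induced mTOR inhibitor, rising by 0.70 (adjusted p 0.00125), where 13.1% of all genes were called higher and 10.6% lower. After sham in control sesn3 rose and eif4ebp3 fell. Between the arms sesn3 was the 1 gene called (0.75 in uninjured cKO, adjusted p 0.0394 by edgeR), where 0.132% of all genes were called. Lane and arm cannot be told apart in uninjured ventricles. In cKO deptor rose and sesn4 fell after cryoinjury against uninjured, and sesn4 fell against sham. The shares of all genes called were 4.81% higher and 2.82% lower after sham in control, 6.92% higher and 3.69% lower after cryoinjury in cKO, and 0.274% lower against sham there. Of 10 genes around myc, a known activator of ribosome synthesis, mycla (1.52, adjusted p 0.00210) and mych (1.11, adjusted p 0.0461) rose and max and mxi1 fell after cryoinjury in control, max fell after sham, and 0 were called in cKO.

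Markers of some cell types shifted in the same libraries. The 11 cardiomyocyte markers summed to 86913 to 106753 CPM of the library total in uninjured control and 61457 to 69308 after cryoinjury, and to 86888 to 99072 and 72175 to 89628 in cKO, with 8 and 2 of the 11 called lower. The 11 measured of 16 macrophage markers summed to 356 to 978 and 1867 to 2532 in control and to 519 to 1228 and 1439 to 1806 in cKO, with 8 and 4 called higher. For 11 of 17 markers of epicardium and fibroblasts the sums were 1024 to 1333 and 4848 to 9154 in control and 1646 to 1906 and 6321 to 7563 in cKO, with 9 called higher in each arm. Of 19 cell cycle genes 18 and 11 were called higher in control and cKO. Other lists had fewer calls. Of 8 neutrophil markers 3 and 1 were called higher in control and cKO, and of 14 for T and B cells 1 and 0. Of 9 for endothelium and endocardium 0 were called higher in either arm, with 2 lower in control and 0 in cKO. Of 8 red blood cell markers 0 were called in either arm. In the same comparisons 13.1% of all genes were called higher and 10.6% lower in control, and 6.92% higher and 3.69% lower in cKO. None of these markers was at 0 in every library, and their part in the levels of the ribosomal protein genes was not tested.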

How the data were processed

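Poly(A) RNA of zebrafish ventricles was measured in 18 libraries, grouped by the titles, treatments and times in the labels. The submitters' processing notes name FastQC 0.11.9, Trim Galore 0.6.10, HISAT2 2.1.0, StringTie 2.1.1 and the build GRCz11, and the file headers name the Ensembl 109 annotation. The values deposited by the authors are estimated counts, whole numbers with no depth scaling. In each library, StringTie coverage times transcript length divided by 75 gave the deposited count within 0.5 for 100% of genes, so 1 count stands for 75 aligned bases and not for 1 read. No interval from counting error is therefore given, and precision rests on the spread between libraries. TPM values are StringTie's, per the file headers of each library. No strand setting is given in the sources used here.

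Symbols came from a table of gene names, and coordinates from the library files (GRCz11). No gene is analysed here under the symbols rpsa, rpl27a, rpl36a, rps4x, rpl41 and rps20. The members RPS4Y2 and RPL36AL keep the symbols of that table and may be the zebrafish genes rps4x and rpl36a, which was not checked. Some further genes enter the counts and medians and are not reported by name here. Genes passing filterByExpr (20462) were scaled by TMM and tested with edgeR 4.0.16 in R 4.3.3 (quasi-likelihood, robust, two-sided, 1 mean per group), with Benjamini-Hochberg adjustment over all of them. SE was taken as the size of the log2 fold change divided by the root of F. TMM library sizes enter CPM, with a prior count of 2 where logs were taken. DESeq2 1.42.0, other scalings and filters, lane, the replicate number and leaving out libraries served as alternatives. The replicate number entered as 1 block over all 18 libraries. Its calls are given beside the main result for sham against uninjured control alone, from the correlation of the deviations of same-numbered libraries. Scripts were tested on simulated data. The labels do not say beyond the pooled ventricles how the libraries of a group were separated, so p-values measure the spread between these libraries.

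Genes named in each comparison were a list of well-known members, the 5 largest called changes in each direction with a mean of at least 5 CPM or, where none was called, the 3 smallest p, the ends of the level and spread rankings, and pairs by name. The members and all gene lists were chosen with earlier results of these data known.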

Additional observations from a re-analysis of the deposited data

How the results depend on the processing

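Of 172 recomputed counts of called members 141 stayed within 1.5 times the reported count, and of 172 recomputed medians 161 kept their sign. DESeq2 called 1 member in cKO against control after sham and 1 after cryoinjury, 1 after sham in control and 1 in cKO, 3 for cryoinjury against sham in control and 10 in cKO. Library totals, an alternative added after seeing the data, gave 43 in control and 59 in cKO for cryoinjury against uninjured. There 27.9% and 11.8% of all genes were called higher. For cryoinjury against sham library totals gave 4 in control and 15 in cKO, and for sham against uninjured they gave 4 in control. They turned the medians to 0.46 for cryoinjury and 0.15 for sham against uninjured control, −0.047 for cKO against control after cryoinjury and −0.00337 for the difference of the sham response. DESeq2 size factors called 1 and scaling without the members and mitochondrial genes 1 for cryoinjury against sham in control. Fitting the compared libraries alone called 3 there and 7 for cryoinjury against uninjured cKO, and turned the median of cryoinjury against uninjured control to 0.015. Lane as a covariate called 0 in cryoinjury against uninjured control and turned the median of cryoinjury against sham in control to −0.0778. Sham control was the only group in both lanes, with replicate 3 alone in lane 4, so the lane term rests on that library. Lane 4 alone, also added after seeing the data, compares with the same library and gave the same −0.0778, so these are not separate results. The cause of these shifts was not tested. Counts in this section that stand without a share of all genes are not read as results about the members.

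Leaving out 1 library of the groups compared gave 5 to 24 calls for cryoinjury against uninjured cKO, 0 to 2 for cryoinjury against sham in cKO, 4 to 6 for cryoinjury against uninjured control and 0 to 1 for sham against uninjured control. Medians that changed sign ranged from −0.141 to 0.0504 (cKO against control, sham) and from −0.11 to 0.0939 (cryoinjury against uninjured, control).

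Of 45 correlations between same-numbered libraries 9 exceeded 0.1 (−0.0336 to 0.198). In 1 of 15 pairs of groups, sham and uninjured control, all 3 lay above it, and only there do blocked calls stand beside the main result. This cut cannot show that the other same-numbered libraries are unpaired. The block itself was 1 term for the replicate number over all 18 libraries, so it paired the libraries of all 6 groups. With the replicate block 34 members were called for cryoinjury against uninjured cKO (12.8% of all genes), 4 for cryoinjury against sham in cKO (2.47%), 7 for cryoinjury against uninjured control (25.3%) and 2 for sham against uninjured control. The block changed no other count of called members.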

Other observations

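Replicate 1 held the lowest share of counts in ribosomal protein genes in each of the 6 groups, and the lowest share of TPM in 6 of 6. On the TMM scale the mean of the members above 100 TPM was lowest in replicate 1 in 5 of the 6 groups. Over all genes the deviations of libraries numbered 1 correlated at 0.0343 to 0.165 in 15 pairs, all above 0. The labels do not say what the replicate numbers stand for.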
